A study of Mus musculus with 35 samples.

Results

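MOF, encoded by *Kat8*, is the lysine acetyltransferase that places most acetyl groups on H4K16, and it works as the catalytic subunit of the MSL and the NSL complex. The genes described here are *Kat8*, the MSL genes *Msl1*, *Msl2* and *Msl3*, and the NSL genes *Kansl1*, *Kansl2*, *Kansl3*, *Mcrs1*, *Wdr5* and *Phf20*. These 10 genes were chosen by name, with earlier results of these data known. All 10 were found once among the 53465 genes of the bulk table and among the 24262 genes of the single-cell tables.

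The MSL complex acetylates H4K16 across gene bodies and promoters, and it is best known from dosage compensation of the X chromosome in flies. The NSL complex sits at the promoters of widely expressed genes and is needed for their transcription. Both are present in most tissues. *Kansl1* is the mouse counterpart of the gene whose loss causes Koolen-de Vries syndrome, a disorder of human brain development, and *Wdr5* also serves histone H3 methyltransferases.

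E14.5 mouse brains were dissociated, and cells were separated by FACS with the EMBRACE antibody panel. For bulk RNA-seq, neural cells (negative for all sort markers), mural cells (PDGFRβ high), endothelial cells (PECAM1 and CD102 positive) and microglia (CD45 medium and CD11b positive) were each taken from 3 wild-type brains, which gave 12 libraries. The brains are called A, B and C here (neural libraries titled N-340, N-343 and N-346, and likewise for the rest). For scRNA-seq by mCEL-Seq2, single wild-type cells came from plates 1 to 3 with a sort gate recorded per well (that of microglia as CD45 medium and CD41 positive), and cells labelled *Mof* knockout came from plates 4 to 6 with that column empty. The knockout allele, any Cre driver and the number of knockout embryos are not given in the sources used here, and the knockout label stands on different plates from the wild-type label, so genotype and plate set cannot be told apart.

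The bulk libraries held 17638358 to 98414914 reads on genes. Neural RNA was prepared with another extraction kit and with TruSeq, and the other 9 libraries with SMART-Seq v4 and Nextera XT, so in bulk the neural population and the library kit cannot be told apart. The neural libraries were also the tightest, with a median coefficient of variation of 6.64% over all tested genes against 34.0% to 47.0% in the other populations. Defining markers were highest in their own population. The summed neural markers took 0.832% to 0.852% of counts in neural libraries, 0.154% to 0.258% in mural, 0.0924% to 0.101% in endothelial and 0.0430% to 0.0549% in microglial libraries. None of the 15 was at 0 in every library of a population. Erythroid genes took up to 0.0455% of neural and up to 0.109% of endothelial libraries, fibroblast markers 0.0310% to 0.0453% of mural and at most 0.00107% of other libraries, and border macrophage markers 0.0461% to 0.0608% of microglial and at most 0.00377% of other libraries. The part of such RNA in the results below was not tested. In bulk, fewer cells of a type and less RNA per cell cannot be told apart.

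The promoter windows of *Kat8* and of 4 partners are shown first, at annotated gene starts, since no start site was measured here. The 4 were more than 2-fold higher in neural libraries against each other population by mean log2 difference. For *Kansl3* against microglia this difference was only 1.05, and as low as 0.84 over the alternatives tried. All 10 genes had a RefSeq window of 300 bases, 250 before to 50 after a gene start, on GRCm38.p6. Where several starts are listed, the one closest to the GENCODE start is given. Capitals mark the GC box GGGCGG, the CCAAT box CCAAT and the ETS core CGGAAG on either strand. In *Kansl1* a GC box and an ETS core overlap. The *Kansl1* start lies 582 bases from the GENCODE one.
Kat8, chr7:127912267-127912566, plus strand: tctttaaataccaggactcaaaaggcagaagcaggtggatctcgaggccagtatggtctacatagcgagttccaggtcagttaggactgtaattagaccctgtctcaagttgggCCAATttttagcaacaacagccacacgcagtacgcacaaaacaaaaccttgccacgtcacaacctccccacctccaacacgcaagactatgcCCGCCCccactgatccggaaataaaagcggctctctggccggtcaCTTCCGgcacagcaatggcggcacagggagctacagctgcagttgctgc
Msl1, chr11:98795266-98795565, plus strand: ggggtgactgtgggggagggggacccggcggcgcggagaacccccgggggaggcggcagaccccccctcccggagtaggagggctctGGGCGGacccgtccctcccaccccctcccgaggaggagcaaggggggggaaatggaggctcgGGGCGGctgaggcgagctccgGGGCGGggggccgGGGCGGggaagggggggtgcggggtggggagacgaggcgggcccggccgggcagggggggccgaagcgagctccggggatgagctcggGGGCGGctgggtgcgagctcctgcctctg
Msl2, chr9:101073804-101074103, plus strand: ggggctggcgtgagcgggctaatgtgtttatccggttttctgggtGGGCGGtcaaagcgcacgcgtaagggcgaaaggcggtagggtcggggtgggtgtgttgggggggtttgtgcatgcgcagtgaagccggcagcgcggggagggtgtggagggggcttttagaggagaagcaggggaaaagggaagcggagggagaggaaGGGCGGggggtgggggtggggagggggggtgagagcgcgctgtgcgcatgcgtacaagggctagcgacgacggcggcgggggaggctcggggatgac
Kansl1, chr11:104469394-104469693, minus strand: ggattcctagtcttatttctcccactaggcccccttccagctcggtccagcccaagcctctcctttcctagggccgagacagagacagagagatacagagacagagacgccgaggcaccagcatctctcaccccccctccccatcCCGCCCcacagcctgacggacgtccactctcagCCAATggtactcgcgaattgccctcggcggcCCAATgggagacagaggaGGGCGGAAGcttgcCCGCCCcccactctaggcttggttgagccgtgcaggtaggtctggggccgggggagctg
Kansl3, chr1:36369132-36369431, minus strand: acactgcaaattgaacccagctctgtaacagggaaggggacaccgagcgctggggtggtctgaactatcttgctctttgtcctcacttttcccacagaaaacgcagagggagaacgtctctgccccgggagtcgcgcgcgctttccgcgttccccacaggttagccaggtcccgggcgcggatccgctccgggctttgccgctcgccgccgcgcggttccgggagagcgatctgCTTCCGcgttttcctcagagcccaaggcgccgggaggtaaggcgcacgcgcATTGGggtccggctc

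The GC box was in 9 of the 10 windows, all but that of *Kansl3*, and in 35.7% of all 32851 windows. The CCAAT box was in 5 (*Kat8*, *Kansl1*, *Kansl2*, *Kansl3* and *Phf20*) and in 37.4% of all. The ETS core was in 4 (*Kat8*, *Kansl1*, *Kansl3* and *Mcrs1*) and in 16.9% of all. The TATA box TATAAA (13.6% of all windows) and the E-box CACGTG (7.15%) were in none, which says only that these letters are not in these windows. The *Kat8* window had a GC content of 53.0% and 12 CpG sites, against medians of 52.7% and 7 over all windows, and that of *Msl1* had 79.3% and 28. A match of letters is a description and not a measured site.

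*Kat8* (ENSMUSG00000030801, GRCm38 chromosome 7 from 127912516 to 127925837, plus strand) was on average most abundant in bulk in neural cells, and next in microglia. Without brain A, microglia lay only slightly above mural cells. Its normalized counts were 984, 980 and 932 in the neural libraries of brains A, B and C. Microglia gave 1071, 670 and 595, mural cells 459, 566 and 628, and endothelial cells 519, 300 and 507. Every neural library lay above every mural and endothelial one, but the microglial library of brain A was the highest of all 12. On the log2(normalized count + 1) scale, *Kat8* was higher in neural than in endothelial cells by 1.17 (SE 0.29, limma adjusted p = 0.00508) and than in mural cells by 0.82 (SE 0.29, adjusted p = 0.0321). The neural excess over microglia was 0.36 (95% interval -0.28 to 0.99, adjusted p = 0.307) and did not pass. It was 0.017 under quantile normalization, and 0.60, 0.26 and 0.21 without brains A, B and C. The order was thus neural, microglia, mural and endothelial, in which neighbours did not differ beyond their spread (mural against microglia -0.46, adjusted p = 0.239, and -0.083 without brain A, and mural against endothelial 0.35, adjusted p = 0.403). The difference between mural and endothelial cells ran from 0.067 to 0.61 over the alternatives. Endothelial cells lay below microglia by 0.81, with an adjusted p = 0.0519 that crossed the threshold with a pseudocount of 10 (0.0498). The call against mural cells was lost when any 1 brain was left out (adjusted p = 0.120, 0.0952 and 0.0902 without brains A, B and C), under quantile normalization (0.322) and with edgeR (0.0597). The call against endothelial cells was lost without brain B (0.0702).

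Taken over all 10 genes, 7 passed the test between neural and mural cells (6 higher in neural, 1 lower), 8 between neural and endothelial cells (all higher) and 7 between neural cells and microglia (all higher). Among all 19765 genes tested, 54.6%, 57.7% and 59.8% passed in these comparisons, and 28.7%, 30.6% and 30.4% passed as higher in neural (25.8% as lower than in mural cells). The median log2 difference of the 10 genes was 0.78, 0.94 and 0.89, against 0.13, 0.17 and 0.08 over all genes. Quantile normalization, which moved the median of all genes by -0.21, -0.22 and -0.16, left 5, 5 and 4 members called. The balance over all genes turned with the scaling, since quantile normalization called 4891, 5246 and 5569 genes higher and 5866, 6115 and 6325 lower in neural cells, and edgeR on recovered reads, with a median of 0 over all genes, called 4941, 5140 and 5388 higher and 5450, 5612 and 5841 lower. Between the other 3 populations, prepared with 1 kit, 2 members passed between mural and endothelial cells, 2 between mural cells and microglia and 1 between endothelial cells and microglia, where 27.8%, 38.0% and 32.4% of all genes passed. Without a test, 8 members had groups of normalized counts that did not overlap in each neural comparison (7, 8 and 7 higher in neural), against 71.5%, 69.6% and 77.9% of all genes (38.7%, 37.8% and 40.6% higher in neural). Among the other populations, 1 member did not overlap between mural and endothelial cells, 4 between mural cells and microglia and 3 between endothelial cells and microglia, against 35.0%, 47.8% and 39.0%.

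**Figure D1:**
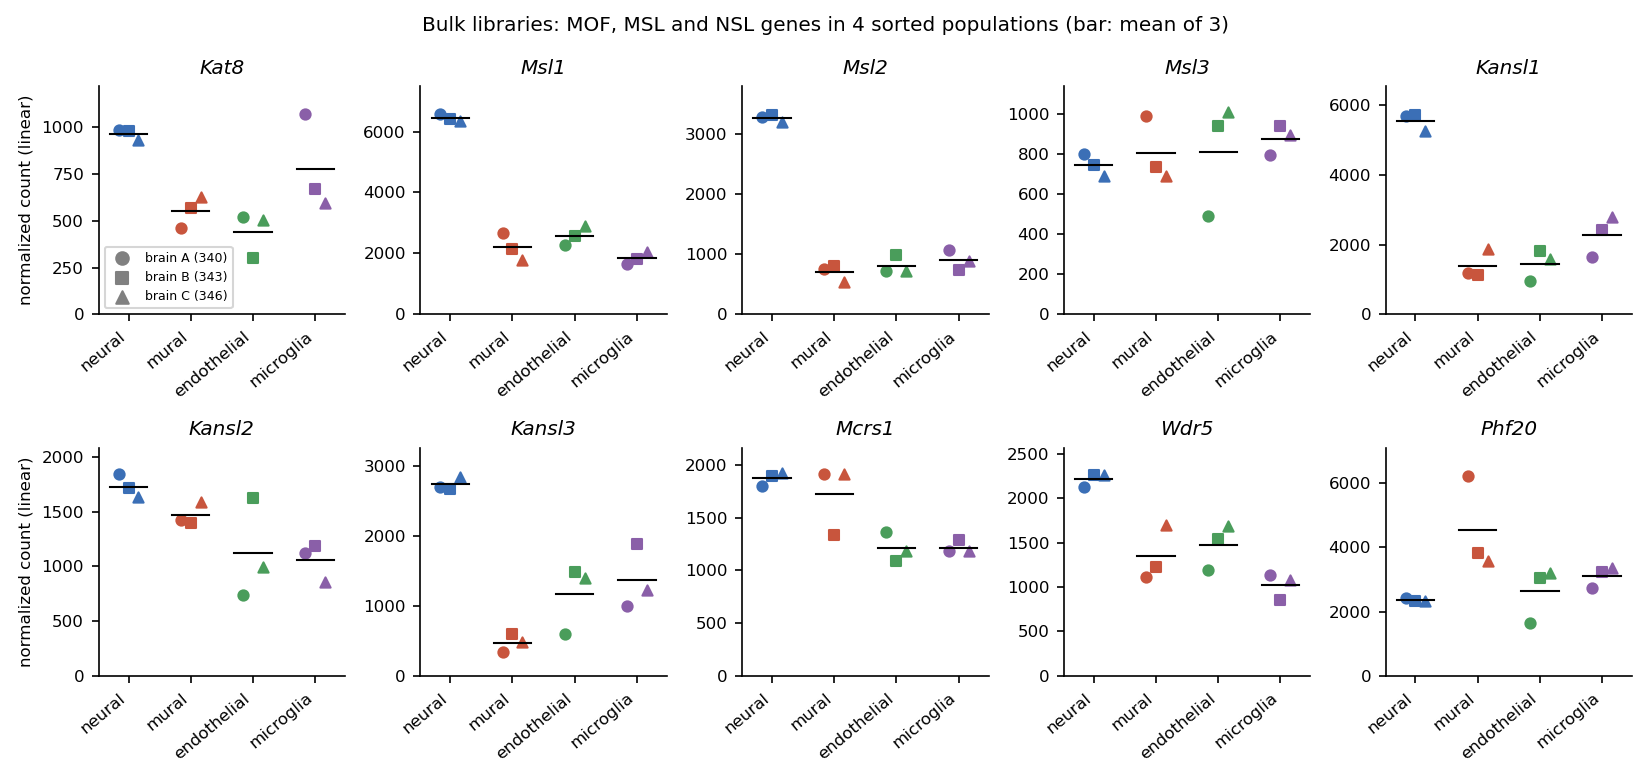
Normalized counts (linear axis from 0) of the 10 genes in the 12 bulk libraries, by population, with a symbol per brain and a bar at the mean of 3. Msl1, Msl2 and Kansl1 stand far above the other populations in all 3 neural libraries, Msl3 lies at a like level in all 4 populations, and Phf20 is highest in the mural library of brain A (6221).

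Of the MSL genes, *Msl1* and *Msl2* were far higher in neural cells and *Msl3* was not. *Msl1* encodes the scaffold that holds MOF in the complex. Its normalized counts were 6566, 6422 and 6345 in neural libraries against 2678, 2140 and 1787 in mural, 2279, 2564 and 2890 in endothelial and 1651, 1824 and 2033 in microglial libraries. No other library reached the lowest neural one. The neural excess was 1.57 against mural cells (SE 0.16, limma adjusted p = 1.35e-05), 1.33 against endothelial cells (adjusted p = 4.48e-05) and 1.82 against microglia (adjusted p = 3.37e-06), and passed under every alternative tried.

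*Msl2* encodes the RING finger subunit, an E3 ubiquitin ligase that also binds DNA. It was measured at 3278, 3313 and 3190 in neural libraries, at 748, 809 and 541 in mural, at 716, 984 and 728 in endothelial and at 1065, 739 and 890 in microglial libraries. The neural excess of 2.24 over mural (SE 0.21, limma adjusted p = 7.73e-06), 2.02 over endothelial (adjusted p = 1.54e-05) and 1.87 over microglial cells (adjusted p = 2.32e-05) also passed under every alternative tried. The 3 other populations overlapped in *Msl2*, and no difference among them passed.

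*Msl3*, an X-linked gene encoding the chromodomain subunit, showed no such pattern. Its normalized counts were 797, 743 and 691 in neural, 988, 733 and 692 in mural, 489, 937 and 1009 in endothelial and 793, 937 and 895 in microglial libraries. All 4 groups overlapped, and none of the 6 pairwise differences passed the test. The widest spread was in endothelial cells, where the library of brain A was the lowest of all 12 and that of brain C the highest.

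Of the NSL genes, *Kansl1* and *Kansl3* had the largest neural excess over mural and endothelial cells, and *Kansl1* and *Wdr5* over microglia. *Kansl1* encodes the scaffold that binds MOF and WDR5. It had normalized counts of 5696, 5718 and 5266 in neural, 1200, 1119 and 1875 in mural, 967, 1811 and 1576 in endothelial and 1646, 2417 and 2794 in microglial libraries. The lowest neural library was well above the highest of the other 9. The neural excess was 2.03 over mural (SE 0.28, limma adjusted p = 1.19e-04), 1.98 over endothelial (adjusted p = 1.34e-04) and 1.32 over microglial cells (adjusted p = 0.00197), and passed under every alternative tried.

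*Kansl3*, whose protein is a core NSL subunit with an alpha/beta hydrolase fold, was lowest on average in mural cells. It was at 2696, 2665 and 2838 in neural, 602, 1482 and 1403 in endothelial, 1004, 1883 and 1222 in microglial and 336, 604 and 483 in mural libraries. All microglial libraries lay above all mural ones, while the endothelial library of brain A (602) fell just under the highest mural one (604). Mural cells were lower than neural cells by 2.56 (SE 0.36, limma adjusted p = 1.42e-04), which passed under every alternative tried. Mural cells were lower than microglia by 1.52 (adjusted p = 0.00668), a call lost without brain C (0.0778) and kept when the spread was estimated from the 9 SMART-Seq libraries alone. Mural cells were also lower than endothelial cells by 1.22 (adjusted p = 0.0279), a call lost without brain B (0.111), without brain C (0.231) and with the SMART-Seq spread (0.0780). The neural excess was 1.34 over endothelial (adjusted p = 0.00855) and 1.05 over microglial cells (adjusted p = 0.0277), lost without brain C (0.0659 and 0.195) and, against microglia, under quantile normalization (0.0537).

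*Kansl2*, a zinc finger subunit that links the NSL core, and *Mcrs1*, a subunit that also acts in spindle assembly, were only modestly higher in neural cells. *Kansl2* was at 1843, 1717 and 1633 in neural, 1424, 1395 and 1591 in mural, 742, 1622 and 994 in endothelial and 1120, 1189 and 857 in microglial libraries. Its neural excess was 0.70 over endothelial cells (limma adjusted p = 0.0357) and 0.73 over microglia (adjusted p = 0.0299). Over the alternatives these ran from 0.38 to 1.01 and from 0.46 to 0.82. Both calls were lost without brain A (0.307 and 0.0824), without brain C (0.165 and 0.206) and under quantile normalization (0.205 and 0.125), and the first also without the minimum (0.0520) and with edgeR (0.0626). *Mcrs1* was at 1799, 1891 and 1926 in neural, 1913, 1339 and 1909 in mural, 1366, 1093 and 1181 in endothelial and 1179, 1283 and 1182 in microglial libraries.

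For *Mcrs1* the neural libraries thus overlapped with the mural ones and lay above all endothelial and microglial ones. The neural excess was 0.63 over endothelial cells (limma adjusted p = 0.00849) and 0.62 over microglia (adjusted p = 0.00851). Without brain C these gave 0.0835 and 0.0860, under quantile normalization 0.134 and 0.0944, and against microglia without brain A 0.0505. The mural excess of *Mcrs1* over microglia was 0.48 (adjusted p = 0.0446), and it passed in 3 of 9 alternatives. Adjusted p over these ran from 0.0229 to 0.289, with 0.246 without brain A, 0.289 without brain C and 0.0650 with the brain as a block.

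*Wdr5* encodes the WD40 protein through which NSL and the SET1 and MLL methyltransferases are joined to their partners. Its normalized counts were 2129, 2266 and 2266 in neural, 1118, 1226 and 1700 in mural, 1196, 1543 and 1683 in endothelial and 1133, 856 and 1076 in microglial libraries. Neural libraries were above all others. The excess over microglia, 1.13 (SE 0.20, limma adjusted p = 6.27e-04), passed under every alternative tried. That over mural (0.74, adjusted p = 0.00936) and endothelial cells (0.60, adjusted p = 0.0244) was lost without brain A (0.0572 and 0.122), without brain B (0.0919 and 0.100) and under quantile normalization (0.107 and 0.178).

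*Phf20*, the Tudor domain and PHD finger subunit that reads methylated lysine, was the 1 member that passed as lower in neural cells, and that against mural cells. It was at 2421, 2333 and 2325 in neural, 6221, 3821 and 3554 in mural, 1635, 3052 and 3190 in endothelial and 2718, 3234 and 3363 in microglial libraries. Mural libraries were above all others, and the library of brain A stood far above the other two. The neural level was lower than the mural one by 0.89 (SE 0.27, limma adjusted p = 0.0154), a call lost without brain B (0.0852) and brain C (0.0603). The mural excess over endothelial cells was 0.80 (adjusted p = 0.0465). It fell to 0.24 without brain A (adjusted p = 0.252), and the call was also lost without brain B (0.124), without brain C (0.0781), with the brain as a block (0.0763), without the minimum (0.0786) and with the SMART-Seq spread (0.109).

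The last call among these populations was *Msl1*, 0.49 higher in endothelial cells than in microglia (limma adjusted p = 0.0391). It passed in 2 of 9 alternatives and was lost without brain A (0.0699), brain B (0.212) or brain C (0.0875) and with the brain as a block (0.0717).

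**Figure D2:**
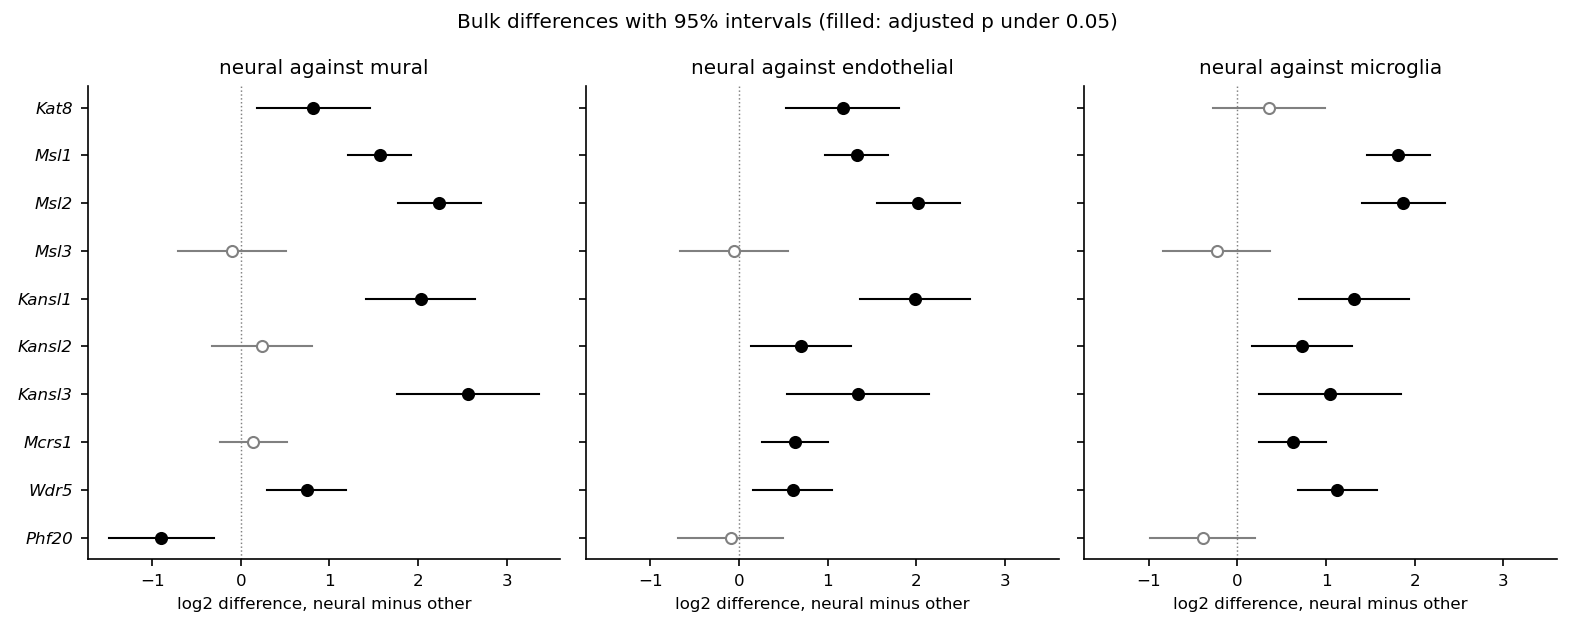
Log2 differences of the 10 genes between neural and mural, endothelial or microglial bulk libraries, with 95% intervals from limma, filled where the adjusted p was under 0.05. The whole intervals of Msl1, Msl2, Kansl1, Kansl3 and Wdr5 lie to the right of 0 in all 3 panels, and Phf20 lies to the left against mural cells (-0.89).

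Scaled by exon length, the order of the genes differed between populations. In neural cells *Msl1* led with 1186 ± 20.7 normalized counts per kb (SD, n = 3), followed by *Kansl1* with 809 ± 37.0 and *Wdr5* with 617 ± 22.0, and *Kat8* stood at 334 ± 10.04. Only *Msl3* (258 ± 18.5) and *Phf20* (236 ± 5.35) were lower than *Kat8* there. In mural cells *Mcrs1* (491 ± 94.3), *Phf20* (454 ± 147) and *Msl1* (405 ± 82.6) led within each other's spread, and *Kansl3* was last (70.4 ± 19.9). In endothelial cells *Msl1* (474 ± 56.3) and *Wdr5* (410 ± 69.7) led and *Kat8* (153 ± 42.7) and *Msl2* (144 ± 26.9) came last. In microglia *Mcrs1* (346.5 ± 16.9), *Msl1* (338 ± 35.2), *Kansl1* (332 ± 85.1), *Phf20* (311 ± 34.1) and *Msl3* (304 ± 25.8) did not stand apart, and *Msl2* was last (160 ± 29.0).

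RNA levels of *Kat8* and of the scaffold genes *Msl1* and *Kansl1* were also set against each other. Per kb of exon, the ratio of *Msl1* to *Kansl1* was 1.47 ± 0.052 in neural cells (SD, n = 3), 2.15 ± 0.84 in mural, 2.36 ± 0.60 in endothelial cells and 1.05 ± 0.19 in microglia. The ratio of *Kat8* to *Msl1* was 0.281 ± 0.0053 in neural cells, 0.493 ± 0.17 in mural, 0.326 ± 0.10 in endothelial cells and 0.820 ± 0.35 in microglia. The ratio of *Kat8* to *Kansl1* was 0.413 ± 0.0069 in neural cells, 0.970 ± 0.21 in mural, 0.811 ± 0.44 in endothelial cells and 0.904 ± 0.56 in microglia. These are levels of RNA and not of protein, and no test was run on the ratios. *Kat8* ranked at the 77.5th percentile of length-scaled genes in neural cells and at the 64.8th in endothelial cells, and *Msl1* at the 95.5th and 84.5th.

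Genes of related lists differed in both directions between neural and other cells in bulk. Of the NSL partners outside the members and their paralogs (*Hcfc1*, *Ogt*, *Phf20l1* and *Kansl1l*), 2 of 4 were higher in neural cells in each of the 3 comparisons. These were *Hcfc1*, the host cell factor scaffold (3.23, 3.18 and 2.66 over mural, endothelial and microglial cells), and *Ogt*, the O-GlcNAc transferase (1.13, 1.07 and 2.22), whose call against mural cells was lost without brain A. The paralog *Phf20l1* was lower in neural than in endothelial cells by 0.84, and *Kansl1l* lower than in microglia by 1.19, a call lost without brain A, without brain C (-0.64) and with the brain as a block (limma adjusted p = 0.0524). Of the other MYST acetyltransferases, 3, 4 and 3 of 4 were higher in neural cells, led by *Kat6a* (2.39, 1.59 and 1.97) and *Kat6b* (2.34, 2.40 and 2.85). The list medians were 1.85, 1.30 and 1.40.

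Of the 4 deacetylases that act on H4K16, the residue that MOF acetylates, 2 were higher in neural cells in each comparison and 1, 1 and 2 lower. *Hdac2* was higher by 1.88, 1.86 and 2.78 and *Sirt1* by 1.63, 2.73 and 1.23, whereas *Hdac1*, a close paralog of *Hdac2*, was lower by 1.27, 1.15 and 0.82 and *Sirt2* was lower than in microglia by 1.51. The call of *Sirt1* was lost without brain B against mural cells, and in 4 of 8 alternatives against microglia (without brain A, without brain B, without the minimum and under quantile normalization). Of the 9 WDR5 partners in the SET1 and MLL complexes, 6, 4 and 7 were higher and 1 lower in each comparison. The methyltransferase genes *Kmt2b* (3.14, 2.40 and 2.57) and *Setd1a* (2.55, 2.19 and 1.72) were higher and *Dpy30*, a small shared subunit, was lower by 1.58, 1.01 and 1.03. All of these passed limma with adjusted p under 0.05 over all genes, in comparisons where the shares of all genes given above passed.

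Between the 3 populations of 1 kit, where 27.8%, 38.0% and 32.4% of all genes passed, these lists gave the following counts. Mural cells differed from endothelial cells in 1 of the 4 NSL partners and paralogs, 1 of 4 MYST acetyltransferases, 0 of 4 deacetylases and 4 of 9 WDR5 partners, led by *Kmt2d* (-1.04) and with *Phf20l1* at -0.80. They differed from microglia in 2, 1, 3 and 2, led by *Kansl1l* (-1.24, with -1.87 without brain B and -0.57 without brain C, lost in 6 of 9 alternatives, adjusted p = 0.0658 with the brain as a block) and *Sirt2* (-1.17). Endothelial cells differed from microglia in 3, 0, 3 and 2, led by *Kansl1l* (-2.22, and -1.45 without brain C) and *Sirt2* (-1.58), both lower.

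The genes whose pattern was most like that of *Kat8* over the 12 libraries, by Pearson's r of log2(normalized count + 1) among 19764 other genes, were *Apex1* (r = 0.94), *Nit1* (0.93), *Gm7107* (0.93), *Rps28* (0.92) and *Cdc42se2* (0.92). Over the 9 SMART-Seq libraries the same genes had r of 0.86 to 0.92. No partner was among them. The closest partners were *Msl2* (0.64, rank 1806) and *Kansl1* (0.63, rank 1918), and *Phf20* had the lowest r (-0.38). Over the 9 SMART-Seq libraries *Msl2* had r = 0.065 and *Kansl1* r = 0.17, so that their likeness to *Kat8* rested on the neural libraries. *Msl1* had r = -0.78 there. Among those libraries microglia had the highest mean of *Kat8* and the lowest of *Msl1*, and endothelial cells the reverse. These values describe libraries that share population, kit and brain, and carry no p.

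In the scRNA-seq all gates were processed with the same chemistry, so the neural gate and the others can be compared within 1 kit. Cells with more than 1500 transcripts were kept, namely 123 from the neural gate, 210 from the mural, 225 from the endothelial and 128 from the microglial one. Their marker class was that of the gate in 99.2%, 92.9%, 92.9% and 100% of cells, and 7.14% of the mural gate had neural markers as their highest. Median depths were 7717, 6885, 6408 and 10761 transcripts per cell. Counts were summed per gate and plate. Plate 3 held only 6 to 14 cells a gate, so its values rest on few transcripts. Whether each plate held 1 brain is not given in the sources used here, so p-values measure the spread between plates, which may be technical.

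*Kat8* was low in single cells, with 22, 26, 25 and 20 transcripts in all cells of the neural, mural, endothelial and microglial gate. This gave 22.8 CPM (exact 95% counting interval 14.3 to 34.5) in neural, 16.8 (10.9 to 24.6) in mural, 15.0 (9.71 to 22.2) in endothelial and 14.6 (8.91 to 22.5) in microglial cells. On plates 1, 2 and 3 the neural gate gave 19.9, 28.4 and 10.9 CPM, and the others ranged from 0 to 59.1, both extremes on plate 3. The intervals overlap, and no difference of *Kat8* between gates passed edgeR. Microglia, second in bulk, had the lowest value here. Of the neural cells 17.9% (11.6 to 25.8) held at least 1 transcript, and of the endothelial cells 8.89%. Since no gate is known to lack *Kat8*, free RNA in these shares could not be gauged. Intervals here cover counting error only.

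Of the 10 members, all of which passed the filter on low counts, 1, 1 and 3 passed between the neural gate and the mural, endothelial and microglial gate, all higher in neural. Among 9281 genes tested with edgeR, 33.1%, 36.4% and 44.3% passed, and 17.7%, 18.1% and 23.2% as higher in neural. Between mural cells and microglia 2 members passed and between endothelial cells and microglia 1, against 37.7% and 36.2% of all genes. None passed between mural and endothelial cells, where 20.7% of all genes did, with 1 member at an unadjusted p under 0.05 and none by DESeq2. *Kansl1* gave 108, 128 and 98.5 CPM in the neural gate of plates 1, 2 and 3 and 63.3, 47.3 and 13.7 in the mural gate, a difference of 1.18 (SE 0.32, edgeR adjusted p = 0.00286). *Msl2* gave 70.9, 85.2 and 76.6 CPM in neural and 33.4, 37.7 and 28.5 in endothelial cells, a difference of 1.04 (SE 0.33, edgeR adjusted p = 0.0107). For both, each neural plate lay above each plate of the other gate. The share of all genes whose gates stand apart in this way was not computed.

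Microglia were lower than each other gate in *Kansl2*, lower than the neural and mural gates in *Phf20* and lower than the neural gate in *Msl1*. *Kansl2* gave 13.3, 20.2 and 39.4 CPM in the microglial gate against 90.8, 104 and 76.6 in the neural, 68.1, 56.7 and 68.6 in the mural and 64.6, 42.4 and 42.7 in the endothelial gate. Each microglial plate was thus below every plate of the others. *Kansl2* was higher than in microglia in neural cells by 2.12 (SE 0.38, edgeR adjusted p = 4.90e-06), in mural cells by 1.502 (adjusted p = 0.00127) and in endothelial cells by 1.42 (adjusted p = 0.00268). Over the alternatives these ran from 1.78 to 2.28, from 1.24 to 1.75 and from 0.89 to 1.74. A *Kansl2* transcript was held by 18.0% of microglia and 45.5% of neural cells, whose depth differed. With each cell thinned to 1500 transcripts these shares were 0% and 12.2%. In bulk the microglial libraries (857 to 1189) overlapped with the endothelial ones in *Kansl2*.

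*Phf20* gave 93.0, 121 and 153 CPM in the neural, 93.4, 96.9 and 96.1 in the mural, 90.7, 51.8 and 42.7 in the endothelial and 42.9, 43.5 and 0 in the microglial gate. It was higher than in microglia by 1.202 in neural (SE 0.34, edgeR adjusted p = 0.00280) and by 0.92 in mural cells (adjusted p = 0.0235). *Msl1* gave 168, 275 and 120 CPM in neural and 99.1, 87.0 and 78.8 in microglial cells, a difference of 0.86 (SE 0.29, edgeR adjusted p = 0.0119). Over the alternatives this difference of *Msl1* ran from 0.42 to 1.06.

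Several of these calls rest on the plates with many cells. Leaving out plate 1 ended the call of *Kansl1* against mural cells (edgeR adjusted p = 0.0884), *Msl2* against endothelial cells (0.384), *Msl1* against microglia (0.140), *Kansl2* in mural (0.247) and endothelial cells (0.504) and *Phf20* in mural cells (0.147). Leaving out plate 2 ended the same calls (0.248, 0.323, 0.610, 0.0820, 0.0894 and 0.218) and that of *Phf20* in neural cells (0.0685). That of *Kansl2* between neural cells and microglia passed under every alternative tried, with adjusted p up to 0.0483. DESeq2 did not call *Kansl1* against mural cells (0.0766), *Msl2* (0.116), *Phf20* in mural cells (0.111) or *Kansl2* in endothelial cells (0.0542), and without the filter on low counts *Msl2* (0.0927) and *Msl1* (0.123) were not called.

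Set beside the bulk result, the sign of the difference was the same in the single-cell sums for 6 of the 7 members called between neural and mural cells, 7 of 8 between neural and endothelial cells and 7 of 7 between neural cells and microglia. The exceptions were *Phf20*, lower in neural than in mural bulk libraries but at 111 and 95.4 CPM in the neural and mural gate, and *Kansl3*, higher in neural than in endothelial bulk libraries but at 30.0 and 35.4 CPM in those gates. Those called the same way in both were *Kansl1* against mural cells, *Msl2* against endothelial cells, and *Msl1* and *Kansl2* against microglia. The share of like signs over all genes called in bulk was not computed, so these counts of signs are a description only. Bulk libraries cover whole transcripts and mCEL-Seq2 the 3′ end, and the part of the library type in where the assays differ was not tested.

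**Figure D3:**
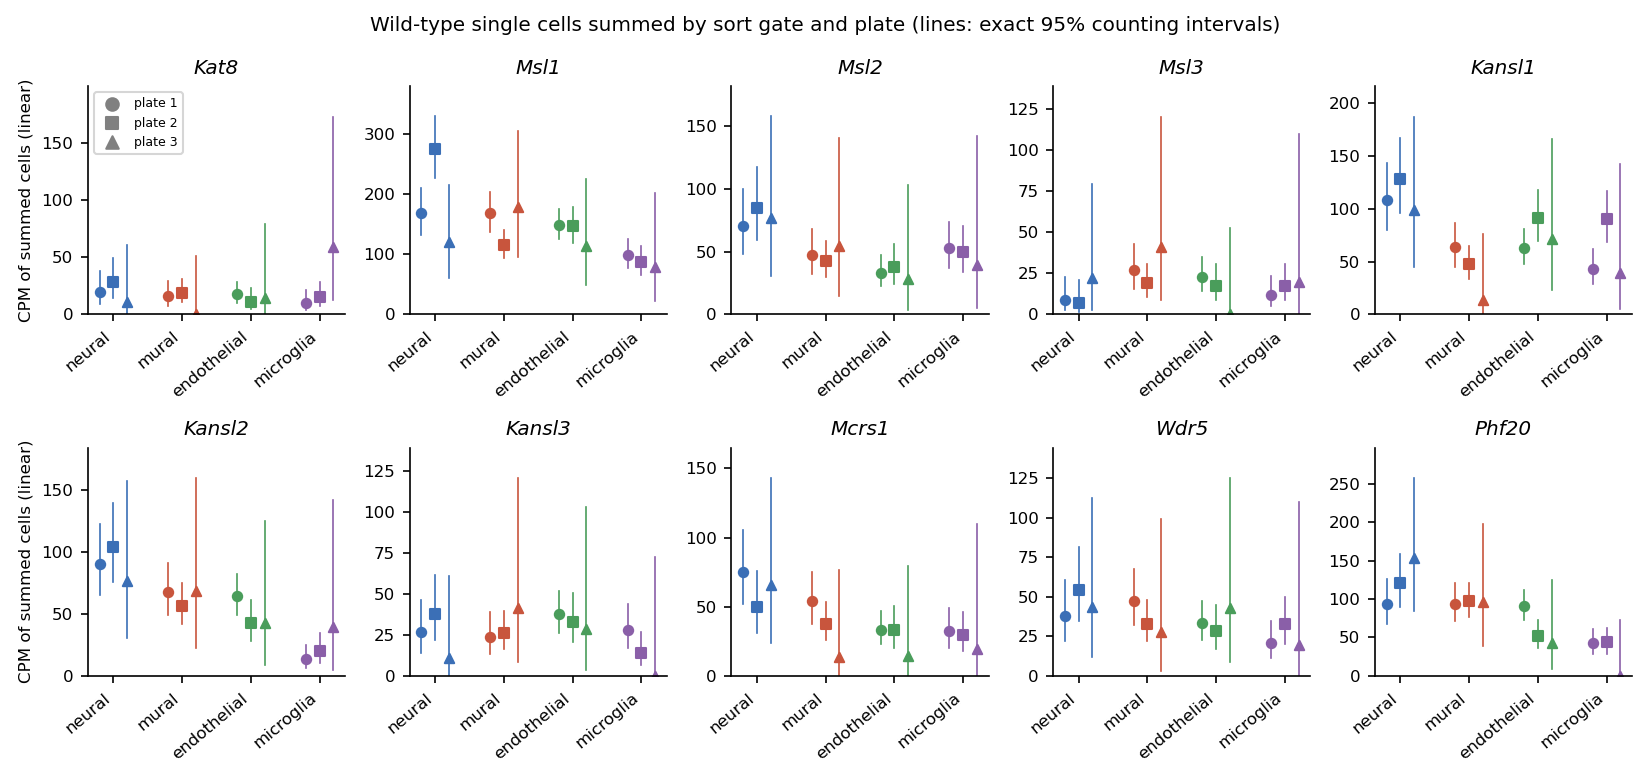
CPM (linear axis from 0) of the 10 genes in wild-type single cells summed by sort gate and plate, with exact 95% counting intervals. Kansl2 lies lowest in the microglial gate on all 3 plates (13.3, 20.2 and 39.4), and the wide intervals belong to plate 3.

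Of the related lists, 1 of 4 NSL partners and paralogs, 1 of 3 MYST acetyltransferases tested and 1 of 4 deacetylases were higher in the neural gate in each comparison, as were 3, 1 and 2 of 9 WDR5 partners against mural, endothelial and microglial cells. Among all genes 17.7%, 18.1% and 23.2% were higher in the neural gate. *Kat6b* was higher by 1.51, 1.88 and 3.16 and *Hdac2* by 1.32, 1.77 and 2.46 (edgeR adjusted p under 0.05 over all genes). Leaving out plate 1 or plate 2 ended both calls against mural cells, and leaving out plate 1 that of *Kat6b* against endothelial cells. *Ogt* was higher than in mural cells by 1.27 and in microglia by 1.92, the first lost without plate 1 or plate 2. Lower in the neural gate were *Kmt2d* against endothelial cells (-1.11, lost without plate 1 or plate 2 and with DESeq2) and, against microglia, *Kansl1l* (-1.88, lost without plate 2 and with DESeq2) and the MYST gene *Kat7* (-1.001, lost without plate 1 or plate 2, with DESeq2 and with RLE size factors). *Kat5* was too low to be tested.

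On the plates labelled *Mof* knockout, the first question was whether *Kat8* was still read. It was found on every plate, with 36 transcripts in 337 cells of plate 4 (12.7 CPM), 18 in 195 cells of plate 5 (10.4 CPM) and 23 in 350 cells of plate 6 (11.2 CPM). The mCEL-Seq2 tag reads the 3′ end, and whether that end lies in a deleted part is not known here, so *Kat8* cannot check the label fully. The plates held different cells. By markers 274 of 337 cells of plate 4 were mural-like, 114 of 195 of plate 5 neural-like with 79 microglia-like, and 298 of 350 of plate 6 endothelial-like. A plate total is therefore a description of 1 plate.

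In the main non-neural class of each plate, *Kat8* was at 14.8 CPM (exact 95% counting interval 10.2 to 20.7) in the mural-like cells of plate 4, 13.9 (6.96 to 24.9) in the microglia-like cells of plate 5 and 8.77 (4.91 to 14.46) in the endothelial-like cells of plate 6. The wild-type gates of the same populations gave 16.8, 14.6 and 15.0, each inside or just above these intervals. *Msl1* was at 193, 194 and 159 CPM over all cells of plates 4, 5 and 6, *Kansl1* at 70.6, 122 and 59.5 and *Phf20* at 108, 79.7 and 76.1. The lowest member beside *Kat8* was *Msl3*, at 12.7, 15.0 and 14.6. *Kansl2* in the microglia-like cells of plate 5 was at 22.8 CPM, against 46.6 in the mural-like cells of plate 4 and 44.4 in the endothelial-like cells of plate 6.

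Neural-like cells were the class with more than 10 cells on all 6 plates, 72, 56 and 16 on the wild-type and 61, 114 and 41 on the knockout plates. Their summed neural markers were 6486 to 9713 CPM on wild-type and 7333 to 9237 CPM on knockout plates. The 10 mural markers summed to 61.1 to 126.4 CPM on wild-type plates and to 492, 126.1 and 103.9 CPM on plates 4, 5 and 6, and the 10 microglial markers to 26.7 to 163 CPM and to 48.9, 209 and 14.3 CPM, with 0 to 8 markers of a list at 0 on a plate. The 10 endothelial markers summed to 35.6 to 74.5 CPM on wild-type plates and to 74.2, 19.6 and 118 CPM on plates 4, 5 and 6. The 4 border macrophage markers were at 0 on all 3 wild-type plates and summed to 8.43, 23.9 and 7.16 CPM on plates 4, 5 and 6, and the 6 fibroblast markers to 0 to 22.5 CPM and to 35.4, 10.9 and 14.3 CPM. Erythroid markers were at 0 apart from 7.16 CPM on plate 6. Their part in the results was not tested. *Kat8* gave 22.5, 28.9 and 10.2 CPM on plates 1, 2 and 3 (13, 13 and 1 transcripts) and 5.06, 7.61 and 25.1 CPM on plates 4, 5 and 6 (3, 7 and 7 transcripts). Plates 4 and 5 were below all wild-type plates, whereas plate 6 lay within their range. The difference was -1.09 (SE 0.63, edgeR p = 0.113, adjusted p = 0.819) and did not pass. Without plate 6 it was -1.72 (adjusted p = 0.615). With wild-type cells of the neural gate only, *Kat8* was too low to be tested.

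*Msl1* gave 170, 265 and 122 CPM in neural-like cells of the wild-type plates and 368, 273 and 279 CPM on plates 4, 5 and 6. All knockout plates lay above all wild-type plates, though plates 2 and 5 lay close. Among 7299 genes tested, 11.9% had groups that did not overlap, 5.71% higher on knockout plates. The difference was 0.70 (SE 0.27, edgeR p = 0.0262, adjusted p = 0.819) and did not pass. Over the alternatives it ran from 0.53 to 0.98, with adjusted p from 0.572 to 0.9999.

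None of the 9 members tested in this comparison passed. No gene of the 7299 did with edgeR (0.0%), with 411 at an unadjusted p under 0.05, and 2 genes passed with DESeq2. *Msl3* was below the filter, with 10 transcripts on wild-type and 23 on knockout plates. Of the other 7 partners, the plates of the 2 labels overlapped in each. *Kansl3* gave 24.2, 35.6 and 10.2 CPM on wild-type and 52.3, 34.8 and 28.7 CPM on knockout plates, and *Kansl1* 107, 129 and 91.7 against 104.5, 163 and 118. *Mcrs1* gave 67.5, 53.4 and 61.1 CPM against 42.2, 56.5 and 35.8, and *Phf20* 95.3, 120 and 143 against 133, 105.5 and 111. Of 4 NSL partners outside the members, 3 other MYST acetyltransferases, 4 deacetylases and 8 WDR5 partners tested, none passed.

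**Figure D4:**
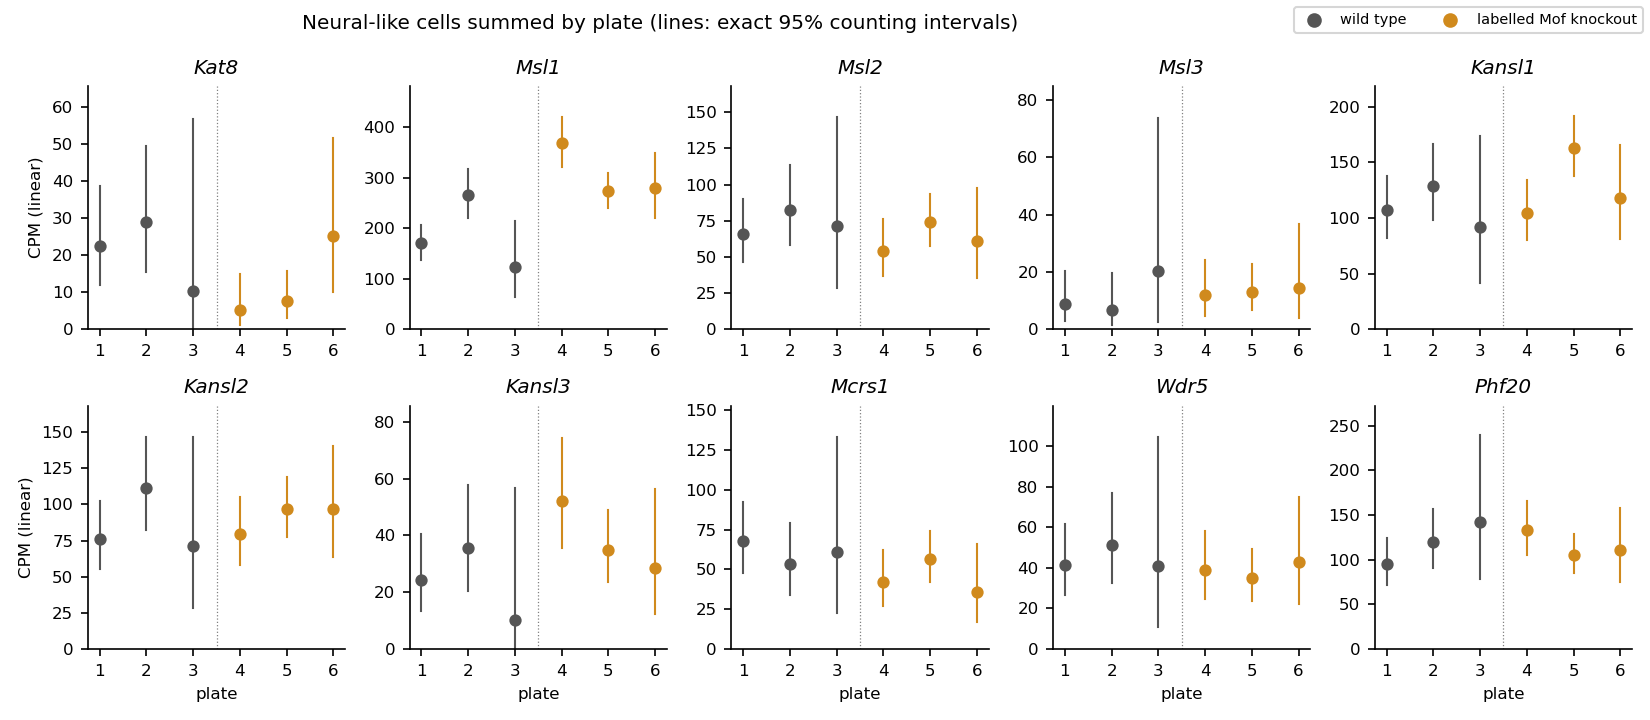
CPM (linear axis from 0) of the 10 genes in neural-like cells summed by plate, wild-type plates 1 to 3 and plates 4 to 6 labelled Mof knockout, with exact 95% counting intervals. Kat8 is lowest on plates 4 and 5 (5.06 and 7.61), and Msl1 is at 273 or more on all 3 knockout plates.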

How the data were processed

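The bulk table as deposited holds counts divided by a factor per library (a linear signal). In each library every value up to 100 reads was a whole number of reads (100% of 124030 values within 0.01) divided by 1 factor, so reads were recovered for edgeR. For single cells the authors deposited transcript counts per well, corrected for identifiers drawn more than once, which are therefore not all whole and were summed and rounded (unit recorded as other). The submitters' processing notes name mm10, BWA 0.6.2-r126, STAR, featureCounts and DESeq2 without their roles.

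Bulk populations were compared with limma 3.58.1 (R 4.3.3) on log2(normalized count + 1), trend on, over genes with a mean of at least 10, with no block for the brain. Sums of cells per gate or marker class and plate were compared with edgeR 4.0.16 (quasi-likelihood, TMM, its low-count filter). Its SE is that implied by the F statistic. P-values are two-sided and Benjamini-Hochberg adjusted over all genes tested, with a threshold of 0.05. Each cell was given the class with the highest mean marker score. Same-numbered bulk libraries were taken to come from 1 brain by their titles. Their residual correlations ran from -0.054 to 0.080, which does not show the pairing. Gate sums of a wild-type plate share that plate, which entered as a block only in an alternative. Libraries on a plate use the same 94 barcodes, and no pair of wells held identical counts. No sample column was unmapped, and doublets were not called. Python 3.11.15, numpy 2.4.6, pandas 2.3.3, scipy 1.17.1 and matplotlib 3.10.9 were used.

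Every member is described. Of the other lists, up to the 2 genes with the largest bulk difference are named per comparison and list, with further called genes named after their values were seen. The members and lists were chosen with earlier results of these data known. Gene positions and exon lengths are from GENCODE vM21. The fits were run on simulated data with the same spread in all groups. That check does not cover the unequal spread of the bulk populations. Alternatives, covering pseudocount, minimum, scaling, tool, blocks, depth and left-out replicates, are given in the closing section. Overlapping exons of other genes covered at most 266 bases of a member, and whether counting used strand is not given in the sources used here.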

Additional observations from a re-analysis of the deposited data

Results flagged for a closer look

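Wells of a gate for medium or low PDGFRβ entered no comparison above. Of 25 such wells 23 held more than 1500 transcripts, and the 10 members together had 111 transcripts in them, a summed level of 676 CPM. The same sum was 781 CPM in the neural, 542 in the mural, 519 in the endothelial and 374 in the microglial gate. It was named here because these wells lie outside the 4 gates compared. No test was run on it.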

How the results depend on the processing

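The neural excess of *Msl1*, *Msl2* and *Kansl1* in bulk passed against all 3 other populations under every alternative, as did that of *Kansl3* over mural cells and *Wdr5* over microglia, and no log2 difference of a member reported above changed sign. Of 822 alternative values for genes of the other lists 146 lost the call, and none changed sign. Of the alternative values for the member differences called above and for those of *Kat8*, 72 lost and 1 gained the call, and gains by other members were not counted here. Counts of members called moved more. Under quantile normalization 5 passed between neural and endothelial cells, 4 between neural cells and microglia and 2 between endothelial cells and microglia. Between mural and endothelial cells 1 passed without the minimum, 1 with the brain as a replicate block and 0 when the neural libraries were left out of the fit, an alternative added after seeing the data. Between mural cells and microglia 1 passed without the minimum, with edgeR and without the neural libraries. Between endothelial cells and microglia 2 passed with a pseudocount of 10, and 0 without the minimum, with the block, with edgeR and without the neural libraries. Leaving out 1 brain gave 4 to 5 calls (neural and mural), 5 to 7 (neural and endothelial), 4 to 7 (neural and microglia), 0 to 1 (mural and endothelial), 0 to 2 (mural and microglia) and 0 (endothelial and microglia). The block also replaced *Mcrs1* (0.0650) by *Kansl1*, lower in mural cells than in microglia by 0.71 (adjusted p = 0.0448), so that this count stayed at 2, and ended the calls of *Kansl1l*, *Dpy30* and *Setd1b*, while *Ash2l* passed between neural and endothelial cells (0.0363) and *Kat7* between mural and endothelial cells (0.0434). It changed no other call of a member.

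In the wild-type gates DESeq2 called 0 members between neural and mural, 0 between neural and endothelial, 1 between mural and microglia and 0 between endothelial and microglia. Size factors of the RLE kind gave 2 for neural and mural, 2 for neural and endothelial and 2 for endothelial and microglia. Without the filter 0 passed between neural and endothelial, with the plate as a replicate block 2, and with cells of more than 3000 transcripts 2 between neural and mural. Leaving out 1 plate gave 0 to 2 (neural and mural), 0 to 2 (neural and endothelial), 1 to 3 (neural and microglia), 0 to 2 (mural and microglia) and 0 to 1 (endothelial and microglia). Fewer samples or genes were then tested, and the cause of the other changes was not tested. Over all genes DESeq2, run without the low-count filter on 21377 genes against 9281, called 1638, 1917, 790, 1987 and 1815 against 3069, 3381, 1919, 3498 and 3358 (neural and mural, neural and endothelial, mural and endothelial, mural and microglia, endothelial and microglia). Leaving out plate 1 or 2 gave 571 to 1845 over the 6 comparisons, and in bulk leaving out brain B gave 3519 between mural and endothelial cells against 5496. In neural-like cells 0 genes passed, against 169 without the filter, 3 without plate 4 and 1 without plate 5, and none of them was a member. *Kat8* there ran from -0.78 to -1.72, with adjusted p from 0.615 to 0.9999. Of 260 alternative CPM values of the members 26 moved by more than the spread, 14 of them after thinning each cell to 1500 transcripts.

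Depth limits the single-cell values, since *Kat8* rests on 20 to 26 transcripts per gate. Bulk had 3 libraries a population, with 1 kit for neural cells and another for the rest. What set the spread of the bulk libraries was not tested.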
